A study of Mus musculus with 20 samples.

Results

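The genes described here encode proteins of the lysosomal membrane and the machinery that sorts newly made enzymes to the lysosome. They are a list of 42 named genes out of the 45706 gene identifiers counted in the series. The list was chosen by function and not by a measured value, but with earlier results of these data known. All 42 symbols were found. They fall into 8 roles: 4 membrane glycoproteins, 6 transporters or other membrane proteins, 7 ion channels or exchangers, 4 sorting receptors, 3 subunits or enzymes of mannose 6-phosphate tagging, 10 adaptor subunits, 3 retromer subunits, and Rab7 with 4 subunits of the tethering complex it works with.

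Lysosomal hydrolases such as cathepsin D (gene Ctsd) are tagged with mannose 6-phosphate in the Golgi, bound there by receptors, and packed with GGA proteins and the AP-1 complex into clathrin-coated carriers. Retromer returns empty receptors from endosomes to the Golgi, and Rab7 with the HOPS complex drives fusion of late endosomes with lysosomes. The lysosomal membrane itself is lined by heavily glycosylated proteins and holds the carriers and channels that export what the hydrolases release.

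RNA was sequenced from tumors of 18-week-old mice and from cell lines, which the study made from end-stage tumors. The mice had a C57BL/6 N background and the MMTV-PyMT oncogene, which drives mammary carcinoma. The sequenced tumors came from 4 mice in which MMTV-cre removes Ctsd in mammary epithelium (MMTV-cre;Ctsd-/-) and from 4 CTSD-competent control mice, labelled WT. The study's controls in other experiments carried floxed Ctsd alleles without cre, and the alleles of these 4 are not given in the sources used here. MMTV-cre does not target the stromal cells of these tumors, whose part in the remaining Ctsd RNA was not tested. The cells are a Ctsd+/+ line and an MMTV-cre;Ctsd-/- line, each from a tumor mouse of its genotype, starved of serum in medium holding 1% fetal calf serum (FCS). The shorter starvation, here 1% FCS, ran for 10 days, and the longer, here 1% FCS LT, for 12 weeks. Each line was sampled in triplicate at both times, which gives 4 groups (n = 3). With 1 line per genotype, line and genotype cannot be told apart in the cells. The labels carry a code beginning LR, whose meaning they do not give. All 4 control tumors have 1 code and all 4 knockout tumors another, so that it cannot be told apart from the genotype there. In cells 8 samples, 2 per group, share a code (the common code), the first 1% FCS replicate of both lines has a code of its own, and so has the third LT replicate of both lines.

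Counts on genes were 49725437 to 64291587 per tumor and 33622831 to 40239762 per cell sample. Ctsd was 1860, 2617, 1781 and 2532 CPM (counts scaled to library size) in control and 797, 360, 1295 and 1233 CPM in knockout tumors. It was 4199, 2858 and 1267 against 192, 141 and 131 CPM in 1% FCS cells, and 1627, 1667 and 1895 against 123, 114 and 151 CPM in 1% FCS LT cells. The groups did not overlap in any of these 3 pairs. Control tumor 4 had the largest share of reads that overlap several genes (15.6%, against 7.11% to 12.4% in the other 7 tumors). It was the lowest of the 4 controls for 19 of the 42 genes and the highest for 14. Knockout tumor 1 was the lowest of the 4 knockouts for 19 and the highest for 9. The share over all genes was not taken. In tumors all 6 adipocyte markers and 3 of 4 endothelial markers were higher in knockouts (summed CPM 1124 to 11300 against 224 to 2177, and 47.5 to 230 against 30.7 to 92.3), 1 of 6 fibroblast markers was higher (Pdgfra, log2 fold change 0.82, with summed CPM of 1182 to 2104 against 612 to 2541), and none of 6 epithelial, 8 macrophage or 5 lymphocyte markers was called. Among the cells, the Ctsd+/+ 1% FCS samples differed from their labelled kind in their markers. Their 6 epithelial markers summed to 878 to 1666 CPM, against 3990 to 9624 in the other 3 groups, and their 6 fibroblast markers to 1159 to 3045 CPM, against 3.03 to 99.8. Epcam was still 129 to 171 CPM in these samples, Col1a1 was 531 to 2320 CPM and Pdgfrb 160 to 694 CPM, whereas Dcn reached at most 1.86 CPM and Lum was at 0. The part of these marker differences in the results below was not tested, and in bulk samples fewer cells of a type and less RNA per cell cannot be told apart.

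The levels of the genes were compared with each other per length, as FPKM, which are CPM divided by exon length in kilobases. Lamp1, a glycoprotein that makes up much of the lysosomal membrane, was the most abundant of the 42 in all 4 cell groups, with 304 ± 65.1 FPKM (SD, n = 3) in Ctsd+/+ 1% FCS cells and 402 ± 47.5 to 427 ± 72.7 in the other 3 groups. In tumors Lamp1 was lower, at 97.1 ± 15.4 FPKM (SD, n = 4) in controls and 99.98 ± 5.29 in knockouts, and Cd63, a tetraspanin of late endosomes, led with 205 ± 79.2 and 141 ± 15.8 FPKM. Rab7, the GTPase of late endosomes, was among the 3 most abundant members in every group, between 93.0 and 142 FPKM.

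**Figure D1:**
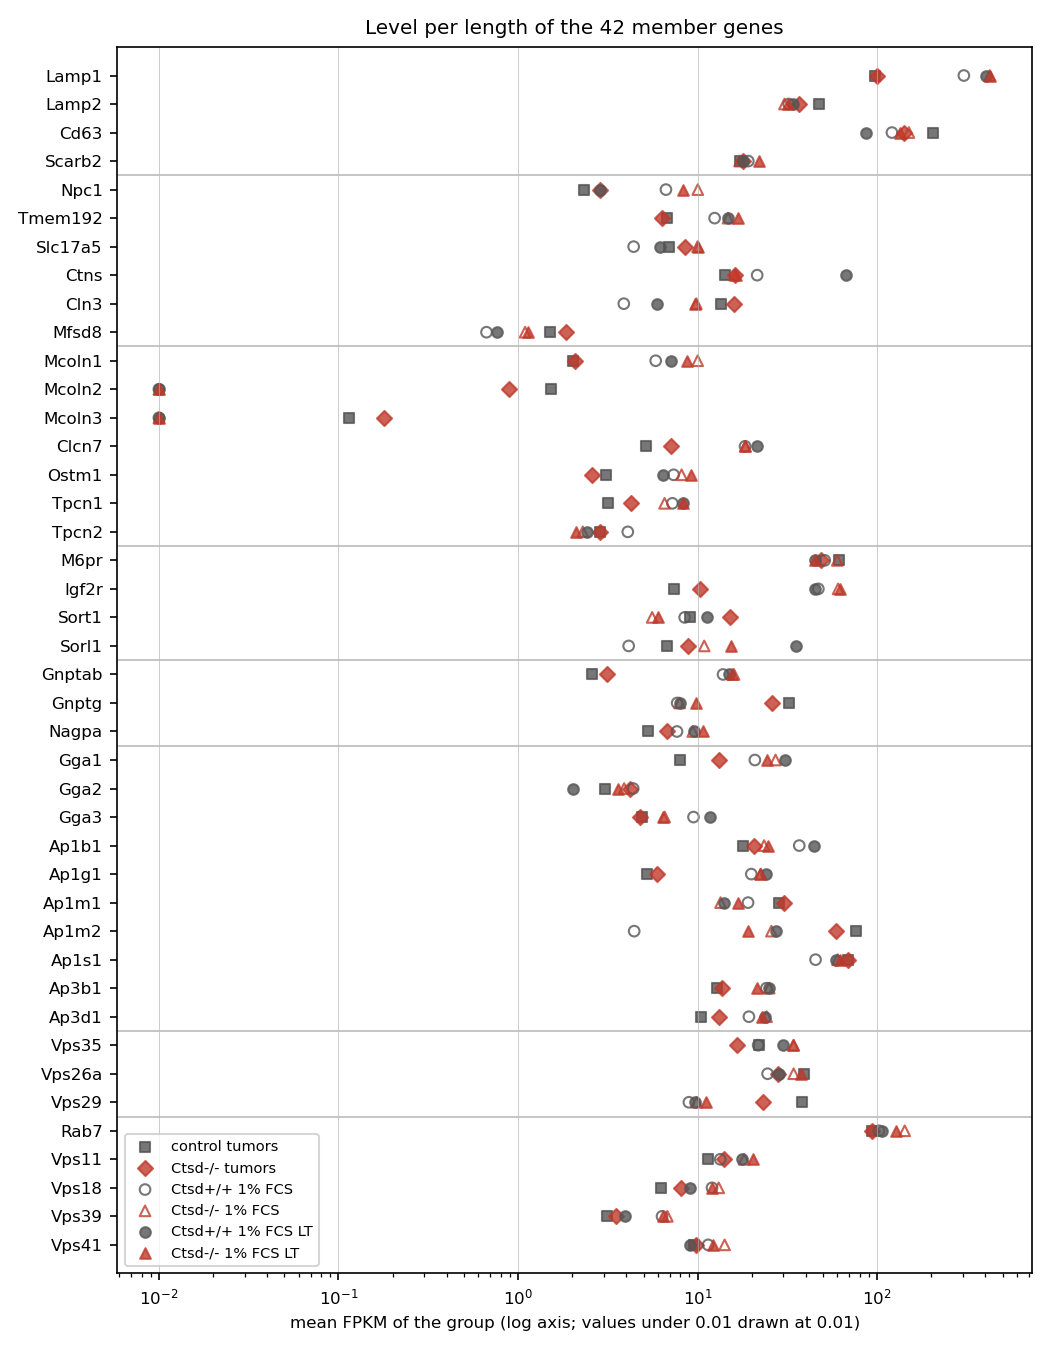
Mean level of each of the 42 genes in the 6 groups, in FPKM on a log axis, with lines between roles. Lamp1, Cd63 and Rab7 stand at the right in every group, and Mcoln2 and Mcoln3 are near 0 in cells and at 0.115 to 1.52 FPKM in tumors.

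The mannose 6-phosphate receptors were at unlike proportions in tumors and cells. M6pr, the cation-dependent receptor, was 61.4 ± 21.1 FPKM in control tumors and 44.8 to 59.9 FPKM in the cell groups. Igf2r, the cation-independent receptor that also clears IGF2, was 7.36 ± 3.56 FPKM in control and 10.3 ± 4.29 in knockout tumors but 44.7 to 62.4 FPKM in cells. The Igf2r to M6pr ratio was therefore 0.0386 to 0.403 over the 8 tumors and 0.859 to 1.52 over the 12 cell samples, without overlap. Of the 3 TRPML channels, which release calcium from endosomes and lysosomes, Mcoln1 was 2.02 to 2.08 FPKM in tumors and 5.84 to 10.0 in cells as group means. Mcoln2 and Mcoln3 had at most 2 and 1 counts in any cell sample, which is under the limit of 3 counts that a count of 0 allows, and they did not enter the tests of the cells. Tumors and cells differ in cell make-up, in the amount of RNA used and in how strand enters the counts, so that these levels are set side by side without a test.

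The first comparison sets the MMTV-cre;Ctsd-/- tumors against the control tumors. At an unadjusted p of 0.1, the threshold the study states for tumors, 7 of the 42 genes were called, 3 higher and 4 lower, which is 16.7%, equal to the 16.7% of all 18617 genes tested. The share of all genes was 8.44% higher and 8.27% lower. None of the 42 passed an adjusted p of 0.05 in edgeR's quasi-likelihood test, beside 0.00537% of all genes that did, and 2 had an unadjusted p under 0.05, beside 8.94% of all genes. The median log2 fold change (log2 FC) of the members was 0.13, beside 0.00 for all genes. It was 0.09 without control tumor 3 or 4, 0.08 without knockout tumor 4 and 0.20 without control tumor 1.

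The clearest of them was Gga1, a Golgi adaptor that binds the tails of mannose 6-phosphate receptors. It was 26.5, 34.8, 29.7 and 29.4 CPM in control tumors 1 to 4 and 43.6, 49.0, 49.2 and 56.6 CPM in knockout tumors 1 to 4. Every knockout tumor lay above every control, which held for no other member and for 4.15% of all genes in either direction. The log2 FC was 0.72 ± 0.17 (SE), with an unadjusted p of 0.00193 and an adjusted p of 0.369 by edgeR, and it stayed between 0.65 and 0.80 when each tumor was left out in turn. Over the 13 alternative runs, by edgeR, DESeq2 or limma-voom, its adjusted p ran from 0.0169 to 0.919.

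Sort1 (sortilin), a receptor that carries hydrolases independently of mannose 6-phosphate, was 102, 77.1, 65.0 and 31.2 CPM in controls and 85.2, 119, 122 and 132 CPM in knockouts. The groups overlapped at control tumor 1 and knockout tumor 1, and the log2 FC was 0.74 ± 0.32 (unadjusted p = 0.0445, adjusted p = 0.555 by edgeR). The p stayed under 0.1 in all 8 fits that leave out 1 tumor. Gga2, the second GGA adaptor called, was 28.9 to 32.1 CPM in controls and spread from 27.2 to 56.0 CPM in knockouts (log2 FC 0.47 ± 0.24, unadjusted p = 0.0754 by edgeR), and this call was lost without control tumor 2 or 3 or knockout tumor 2 or 4.

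All 3 retromer subunits were lower in knockout tumors on average, and 2 of them were called, beside 8.27% of all genes called lower. Vps29 was 129, 132, 287 and 395 CPM in controls and 198, 117, 119 and 135 CPM in knockouts (log2 FC -0.73 ± 0.38, unadjusted p = 0.0810 by edgeR). Vps26a was 84.7, 94.0, 110 and 160 CPM against 96.6, 60.3, 73.9 and 91.3 CPM (log2 FC -0.48 ± 0.25, unadjusted p = 0.0840). Vps35, the subunit that recognises cargo, was 171, 132, 191 and 291 CPM against 193, 126, 157 and 117 CPM and was not called (log2 FC -0.41 ± 0.27, unadjusted p = 0.168). Control tumor 4 was the highest of the 8 tumors for each of the 3. Without it the log2 FC was -0.36 for Vps29, -0.26 for Vps26a and -0.15 for Vps35, and no retromer subunit was called. The Vps26a call was also lost without control tumor 3 or knockout tumor 2 or 3, and the Vps29 call without control tumor 3 or knockout tumor 2, 3 or 4.

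Cd63 was 512, 666, 665 and 1179 CPM in controls and 606, 489, 500 and 483 CPM in knockouts, with control tumor 4 again the highest (log2 FC -0.54 ± 0.27, unadjusted p = 0.0761 by edgeR). Without that tumor it was -0.24 and no longer called, nor was it without knockout tumor 2, 3 or 4. Mcoln2 was 2.79 to 6.92 CPM in controls and 2.04 to 4.24 CPM in knockouts (log2 FC -0.76 ± 0.36, unadjusted p = 0.0607), and its call was lost without control tumor 2 or knockout tumor 2 or 4.

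**Figure D2:**
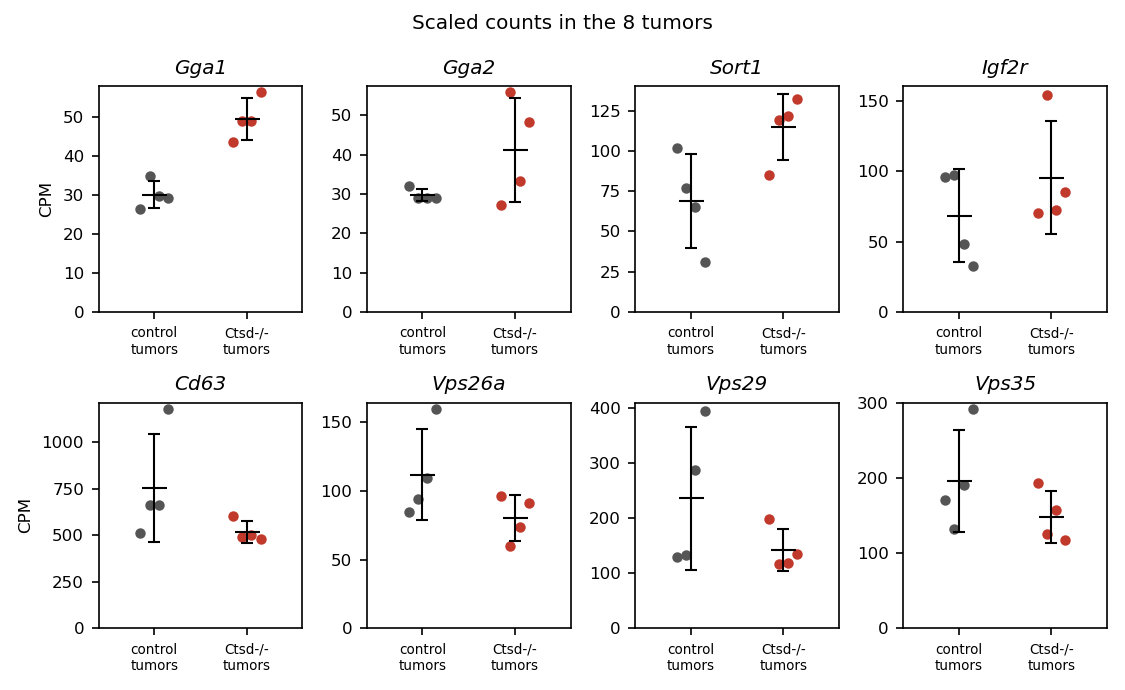
CPM of 8 genes in the 4 control and 4 knockout tumors, each axis starting at 0, with 1 point per tumor and the mean ± SD. The groups are apart for Gga1 alone, and control tumor 4 is the highest tumor for Cd63, Vps26a, Vps29 and Vps35, with control tumor 3 next for Vps29.

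The other 35 genes were not called in tumors. Lamp1 was 208, 303, 248 and 280 CPM in controls and 280, 279, 253 and 258 CPM in knockouts, and Lamp2, its relative that also serves chaperone-mediated autophagy, was 372, 375, 446 and 625 against 463, 303, 315 and 316 CPM. Igf2r was 95.9, 97.4, 48.2 and 32.7 CPM against 70.6, 155, 72.1 and 84.9 CPM, and M6pr was 179, 210, 255 and 379 against 271, 172, 206 and 167 CPM. The ranges of the 2 groups overlapped for all 4 genes. Npc1, which exports cholesterol from lysosomes, was 33.7, 29.6, 27.9 and 13.9 CPM against 20.6, 34.8, 35.3 and 38.5 CPM. Mcoln1 was 15.9, 16.7, 12.8 and 15.8 CPM against 11.6, 19.3, 13.7 and 18.3 CPM. Gnptab, the catalytic subunits of the enzyme that begins the mannose 6-phosphate tag, was 16.8, 17.7, 15.95 and 10.2 CPM against 14.0, 14.9, 22.4 and 22.3 CPM, and Rab7 was 230, 229, 224 and 289 against 246, 223, 264 and 241 CPM. For these 4 genes, too, the groups overlapped. In tumors, counted without strand, reads shared with a gene on the other strand are set aside: counted the same way in the cells, Rab7 kept 0.728 and Ap1g1 0.724 of its stranded count, and 49.5% of the exon length of Gnptg overlaps Unkl.

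The second comparison sets the Ctsd-/- line against the Ctsd+/+ line after 10 days of serum starvation. In 1% FCS, 19 of the 40 genes tested were called at an adjusted p of 0.05, beside 48.5% of all 15178 genes, so that the members' share of 47.5% lay near the background. By direction 15 were higher, beside 23.5% of all genes, and 4 were lower, beside 25.1%. The median log2 FC was 0.24 for the members and 0.00 for all genes, and it was 0.15 without Ctsd+/+ replicate 3. In 22 of the 40 genes the groups did not overlap, beside 55.2% of all genes. Of the 19, 15 were called in each of the 6 fits that leave out 1 sample. With an added threshold of an absolute log2 FC above 1, 4 genes were called, all higher, beside 25% of all genes. Among the samples with the common LR code, 2 per group, 19 members were called and their median log2 FC was 0.23, and with the LR code as a covariate over all samples 22 were called. For these fits and the other alternative runs below, the share of all genes called was not taken.

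Ap1m2, the medium subunit of AP-1 that is found in epithelial cells and sorts cargo to their basolateral side, had the largest difference of the members. It was 14.8, 12.0 and 14.9 CPM in Ctsd+/+ and 79.2, 80.8 and 82.5 CPM in Ctsd-/- cells, with a log2 FC of 2.54 ± 0.11 (SE, adjusted p = 4.96e-08 by edgeR). Ap1m1, the medium subunit used by most cell types, moved the other way, from 58.1, 63.9 and 60.3 CPM to 42.1, 43.2 and 42.9 CPM (log2 FC -0.51, adjusted p = 0.00151). Neither pair of groups overlapped. Of the other AP-1 subunits, the large subunit Ap1b1 was lower, at 203, 190 and 155 against 124, 114 and 111 CPM (log2 FC -0.65, adjusted p = 0.000664), the small subunit Ap1s1 was higher by a log2 FC of 0.41 (adjusted p = 0.0488, lost without any of 4 samples), and the large subunit Ap1g1 was not called. In the same comparison 5 of 6 epithelial markers were called higher, the sixth, Krt14, was called lower (log2 FC -2.50), and all 4 fibroblast markers tested were called lower. Their part was not tested.

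The GGA and AP-3 adaptors were split as well. Gga1 was higher (70.4, 86.4 and 78.5 against 93.1, 106 and 108 CPM, log2 FC 0.38, adjusted p = 0.00605) and Gga3 lower (58.0, 58.6 and 61.0 against 48.8, 33.8 and 40.1 CPM, log2 FC -0.53, adjusted p = 0.00601), while Gga2, at 56.9, 38.4 and 32.9 against 48.8, 34.7 and 30.7 CPM, was not called. Of the AP-3 subunits, which take membrane proteins to lysosomes directly, Ap3d1 was higher by 0.33 (adjusted p = 0.0392) and Ap3b1 was not called. The Ap3d1 call was lost without any of 4 samples.

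Among the sorting receptors, Sorl1, a sortilin relative that recycles cargo between endosomes and the Golgi, was 55.0, 44.8 and 40.4 CPM in Ctsd+/+ and 199, 84.1 and 85.9 CPM in Ctsd-/- cells (log2 FC 1.40 ± 0.29, adjusted p = 0.00183). The groups did not overlap, and 1 Ctsd-/- sample was more than the other 2 together. That sample and Ctsd+/+ replicate 1 carry a code of their own, and among the samples with the common code the log2 FC was 1.00 (adjusted p = 0.00107). Sort1 was 82.6, 61.5 and 48.0 against 65.8, 29.6 and 31.3 CPM and was not called (log2 FC -0.60, adjusted p = 0.102), with overlap. Among the samples with the common code it was -0.85 and called, as it was with the LR code as a covariate (log2 FC -0.67, adjusted p = 0.00319). Igf2r was 499, 450 and 363 against 719, 504 and 468 CPM (log2 FC 0.37, adjusted p = 0.0938) and M6pr 241, 222 and 175 against 253, 253 and 244 CPM (log2 FC 0.23, adjusted p = 0.157), and neither was called. With the LR code as a covariate Igf2r was called (log2 FC 0.35, adjusted p = 0.020). None of the 3 genes of mannose 6-phosphate tagging was called, with Gnptab at 90.6, 75.5 and 78.4 against 106, 85.6 and 89.8 CPM.

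Of the 6 transporters and other membrane proteins, 4 were called higher and none lower, beside 23.5% and 25.1% of all genes, and Ctns and Tmem192 were not called. Cln3, a membrane protein whose loss causes juvenile Batten disease, was 25.1, 20.6 and 21.6 CPM in Ctsd+/+ and 65.8, 50.1 and 54.7 CPM in Ctsd-/- cells (log2 FC 1.34 ± 0.22, adjusted p = 0.000376). Slc17a5 (sialin), which exports sialic acid, was 18.7, 15.4 and 13.8 against 47.2, 32.9 and 28.6 CPM (log2 FC 1.18 ± 0.25, adjusted p = 0.00237). In both genes every Ctsd-/- sample lay above every Ctsd+/+ sample. Mfsd8, the protein of another form of Batten disease, rose by a log2 FC of 0.71 (adjusted p = 0.00175). Npc1 was 87.5, 71.3 and 67.2 against 147, 95.8 and 97.0 CPM (log2 FC 0.59, adjusted p = 0.0294). The Npc1 call was lost without Ctsd+/+ replicate 2 or 3 or Ctsd-/- replicate 1, with an adjusted p of up to 0.134. Ctns, which exports cystine, was 121, 65.8 and 31.3 CPM in Ctsd+/+ and 83.8, 45.2 and 34.3 CPM in Ctsd-/- cells, with overlap.

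The membrane glycoproteins were not called. Lamp1 was 983, 818 and 635 against 1380, 1062 and 948 CPM (log2 FC 0.48 ± 0.20, adjusted p = 0.0638), Lamp2 was 385, 342 and 194 against 357, 282 and 234 CPM, and Cd63 was 515, 468 and 351 against 566, 601 and 491 CPM. The groups overlapped in all 3. Lamp1 lay close to the threshold and passed it by DESeq2 (adjusted p = 0.0499), among the samples with the common code (adjusted p = 0.0471) and with the LR code as a covariate (adjusted p = 0.00825). The channels went both ways. Mcoln1 was higher, with 55.4, 40.8 and 36.1 against 99.1, 67.4 and 60.1 CPM (log2 FC 0.78, adjusted p = 0.0102), and Tpcn2, a cation channel of endosomes and lysosomes, was lower, with 22.3, 22.9 and 19.2 against 14.5, 10.9 and 10.8 CPM (log2 FC -0.83, adjusted p = 0.00299). Neither overlapped. Clcn7, the chloride and proton exchanger, and its partner Ostm1 were not called.

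Among the members, the retromer subunits, Rab7 and the HOPS subunits were higher wherever they were called. Vps35 was 200, 187 and 192 against 312, 308 and 294 CPM (log2 FC 0.66, adjusted p = 0.0021), and Vps26a rose by a log2 FC of 0.48 (adjusted p = 0.00702). Rab7 was 274, 276 and 250 against 355, 397 and 362 CPM (log2 FC 0.48, adjusted p = 0.00208). The groups did not overlap for these 3 genes. Of the HOPS subunits, Vps11 rose by 0.44 (adjusted p = 0.0106) and Vps41 by 0.30 (adjusted p = 0.0191), and Vps18 and Vps39 were not called. The Vps41 call was lost without Ctsd+/+ replicate 2 or Ctsd-/- replicate 1.

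**Figure D3:**
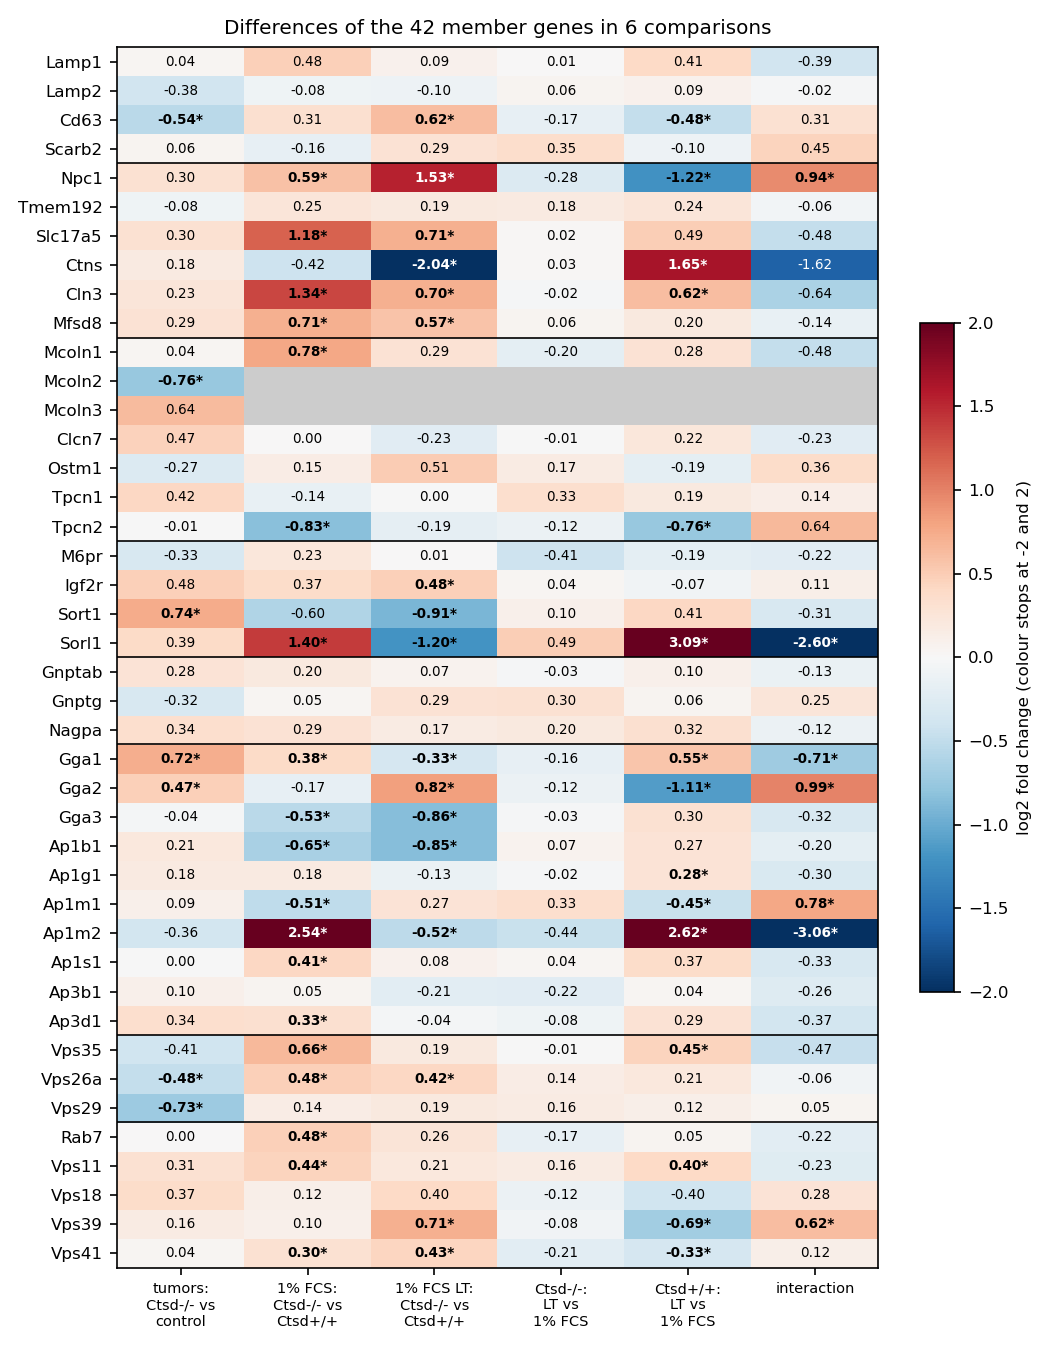
Log2 FC of the 42 genes in the 6 comparisons, with an asterisk where called (tumors at an unadjusted p of 0.1, cells at an adjusted p of 0.05) and grey where not tested, and lines between roles. The column for Ctsd-/- cells has no asterisk, and Ap1m2 and Sorl1 turn sign between the columns for 1% FCS and 1% FCS LT.

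Several of these genes carry in their promoters the palindrome TCACGTGA, the core of the CLEAR element to which TFEB and TFE3, regulators of lysosomal genes, bind. In RefSeq promoters (build GRCm38.p6, 250 bases before to 50 after the start site), windows were found for 34 of the 42 genes (not for Ap1m1, M6pr, Npc1, Sort1, Tpcn1, Vps11, Vps35 and Vps39). The motif reads the same on both strands, and it contains the shorter CACGTG. TCACGTGA was found for 6 of the 34 genes (Cln3, Vps26a, Igf2r, Mcoln1, Clcn7 and Gnptg), counted once per gene over their 41 windows, and in 0.974% of all 32851 promoters, counted per window. CACGTG was found for 11 of the 34, and in 7.15% of promoters. The promoters of the 4 of these 6 genes with the largest log2 FC in 1% FCS cells are printed 5′ to 3′ on the strand of the gene, with the first TCACGTGA in capitals. They lie at chr7:126583187-126583486 for Cln3, chr10:62486549-62486848 for 1 start of Vps26a and chr17:12769657-12769956 for Igf2r, all on the minus strand, and at chr8:3500269-3500568 on the plus strand for Mcoln1.
Cln3: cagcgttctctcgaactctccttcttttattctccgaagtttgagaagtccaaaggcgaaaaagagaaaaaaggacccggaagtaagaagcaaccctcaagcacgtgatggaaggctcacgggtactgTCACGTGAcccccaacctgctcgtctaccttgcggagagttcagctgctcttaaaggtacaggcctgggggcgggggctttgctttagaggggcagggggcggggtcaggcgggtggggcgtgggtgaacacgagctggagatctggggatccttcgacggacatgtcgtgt
Vps26a: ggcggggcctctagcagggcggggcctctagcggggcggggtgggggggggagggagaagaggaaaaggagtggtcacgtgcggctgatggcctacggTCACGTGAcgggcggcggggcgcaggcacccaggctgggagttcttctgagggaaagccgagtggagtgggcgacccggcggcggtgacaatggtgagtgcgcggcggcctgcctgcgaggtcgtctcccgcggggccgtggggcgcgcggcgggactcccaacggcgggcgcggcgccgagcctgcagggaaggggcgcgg
Igf2r: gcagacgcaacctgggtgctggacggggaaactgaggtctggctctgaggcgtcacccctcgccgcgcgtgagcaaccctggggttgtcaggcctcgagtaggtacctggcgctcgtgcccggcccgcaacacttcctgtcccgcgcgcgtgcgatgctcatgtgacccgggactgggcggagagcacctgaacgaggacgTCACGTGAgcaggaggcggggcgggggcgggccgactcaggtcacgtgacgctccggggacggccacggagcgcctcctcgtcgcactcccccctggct
Mcoln1: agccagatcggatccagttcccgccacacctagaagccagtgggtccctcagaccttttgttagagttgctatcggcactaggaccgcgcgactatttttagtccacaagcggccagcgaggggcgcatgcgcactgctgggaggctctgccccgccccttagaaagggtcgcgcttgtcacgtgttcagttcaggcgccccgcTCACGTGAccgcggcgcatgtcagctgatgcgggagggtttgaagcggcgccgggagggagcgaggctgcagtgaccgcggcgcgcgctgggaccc
This match begins 122, 152, 49 and 46 bases before the start site, in this order, and the Igf2r window holds 2 matches. Another Vps26a window, at chr10:62486756-62487055 for a start further upstream, also holds a match and is not printed. That match begins 183 bases before its start site. In 1% FCS the log2 FC was 1.34 for Cln3, 0.78 for Mcoln1, 0.48 for Vps26a and 0.37 for Igf2r, of which Igf2r was not called, and it was 0.05 for Gnptg and 0.00 for Clcn7, neither called. A match is a description of the letters, and binding was not measured here.

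The third comparison is the same contrast of genotypes after 12 weeks in 1% FCS. It shares no sample with the second, but it comes from the same lines. All 12 cell samples were fitted together with a shared estimate of the spread. In 1% FCS LT, 17 of the 40 genes were called, 42.5% beside 39.6% of all genes. By direction 10 were higher, beside 20.5% of all genes, and 7 were lower, beside 19.1%. The median log2 FC was 0.19, beside 0.01 for all genes, and 0.09 without Ctsd-/- replicate 3, and the groups did not overlap in 22 of 40 genes, beside 54.2% of all genes. Of the 17, 11 were called in each of the 6 fits that leave out 1 sample. Above an absolute log2 FC of 1 there were 1 higher and 2 lower, beside 19.4% of all genes. Among the samples with the common LR code, 19 were called and the median was 0.11, and with the LR code as a covariate 23 were called.

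The transporters held the largest differences. Ctns was 158, 248 and 279 CPM in Ctsd+/+ LT and 50.4, 55.1 and 61.2 CPM in Ctsd-/- LT cells, with a log2 FC of -2.04 ± 0.44 (adjusted p = 0.00324 by edgeR). Npc1 was 31.8, 27.7 and 37.7 against 79.7, 84.9 and 116 CPM (log2 FC 1.53 ± 0.21, adjusted p = 0.000133). Neither pair of groups overlapped, and both calls held in all 6 fits that leave out 1 sample. Cln3 was 26.9, 28.6 and 47.7 against 50.6, 48.9 and 68.7 CPM (log2 FC 0.70, adjusted p = 0.0216) and Slc17a5 19.7, 20.2 and 27.6 against 27.3, 32.3 and 50.4 CPM (log2 FC 0.71, adjusted p = 0.0417), and Mfsd8 was higher by 0.57 (adjusted p = 0.00822). Slc17a5 overlapped by 1 sample, its call was lost without any of 4 samples, and that of Cln3 without Ctsd+/+ replicate 1 or 2 or Ctsd-/- replicate 3.

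Both sortilin relatives were lower. Sorl1 was 349, 470 and 375 CPM in Ctsd+/+ LT and 179, 180 and 162 CPM in Ctsd-/- LT cells (log2 FC -1.20 ± 0.28, adjusted p = 0.00569). Sort1 was 79.3, 99.6 and 77.1 against 50.9, 42.7 and 42.3 CPM (log2 FC -0.91 ± 0.28, adjusted p = 0.0239), a call lost without Ctsd+/+ replicate 2 or Ctsd-/- replicate 2 or 3. Igf2r was 391, 422 and 436 against 538, 557 and 647 CPM (log2 FC 0.48, adjusted p = 0.0411). The groups of these 3 genes did not overlap, but the Igf2r call was lost in each of the 6 fits that leave out 1 sample. M6pr was 192, 182 and 186 against 159, 193 and 211 CPM, with a log2 FC of 0.01.

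Of the 10 adaptors 4 were called lower and 1 higher, beside 19.1% and 20.5% of all genes. Ap1b1 was 194, 234 and 233 against 123, 119 and 125 CPM (log2 FC -0.85, adjusted p = 0.000146) and Gga3 was 73.9, 64.1 and 80.3 against 38.2, 38.8 and 43.5 CPM (log2 FC -0.86, adjusted p = 0.000371). Ap1m2 was 84.7, 86.7 and 84.7 against 53.7, 58.3 and 66.8 CPM (log2 FC -0.52, adjusted p = 0.00226). Gga1 was 114, 117 and 114 against 87.7, 91.7 and 95.0 CPM (log2 FC -0.33, adjusted p = 0.0162, lost without any of 3 samples). The groups of these 4 genes did not overlap. Gga2 was the exception, with 18.0, 18.7 and 22.7 against 37.0, 31.5 and 36.6 CPM (log2 FC 0.82, adjusted p = 0.00964).

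Of the other members, Cd63 was 347, 269 and 343 against 479, 468 and 529 CPM (log2 FC 0.62, adjusted p = 0.00739), and the HOPS subunits Vps39 (log2 FC 0.71, adjusted p = 0.000701) and Vps41 (log2 FC 0.43, adjusted p = 0.0038) and the retromer subunit Vps26a (log2 FC 0.42, adjusted p = 0.0181) were higher. The Vps26a call was lost without any of 3 samples. Lamp1 was 997, 1007 and 1222 against 941, 1155 and 1329 CPM, Lamp2 295, 280 and 403 against 241, 314 and 356 CPM, and Mcoln1 52.4, 46.0 and 62.6 against 56.4, 64.7 and 76.3 CPM, all with overlap and not called. Mcoln1 was called with the LR code as a covariate (adjusted p = 0.0277). Gnptab (93.3, 81.9 and 87.4 against 88.7, 81.9 and 105 CPM) and Vps35 (276, 254 and 264 against 233, 302 and 369 CPM) also overlapped and were not called. Rab7 was 256, 291 and 281 against 314, 313 and 364 CPM, without overlap, and was not called (log2 FC 0.26, adjusted p = 0.0578), although it was by DESeq2 (adjusted p = 0.0433), with counts regardless of strand (adjusted p = 0.0466) and with the LR code as a covariate (adjusted p = 0.0428). Of the 6 epithelial markers 1 was higher and 2 were lower in this comparison, and of 4 fibroblast markers tested 2 were higher.

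**Figure D4:**
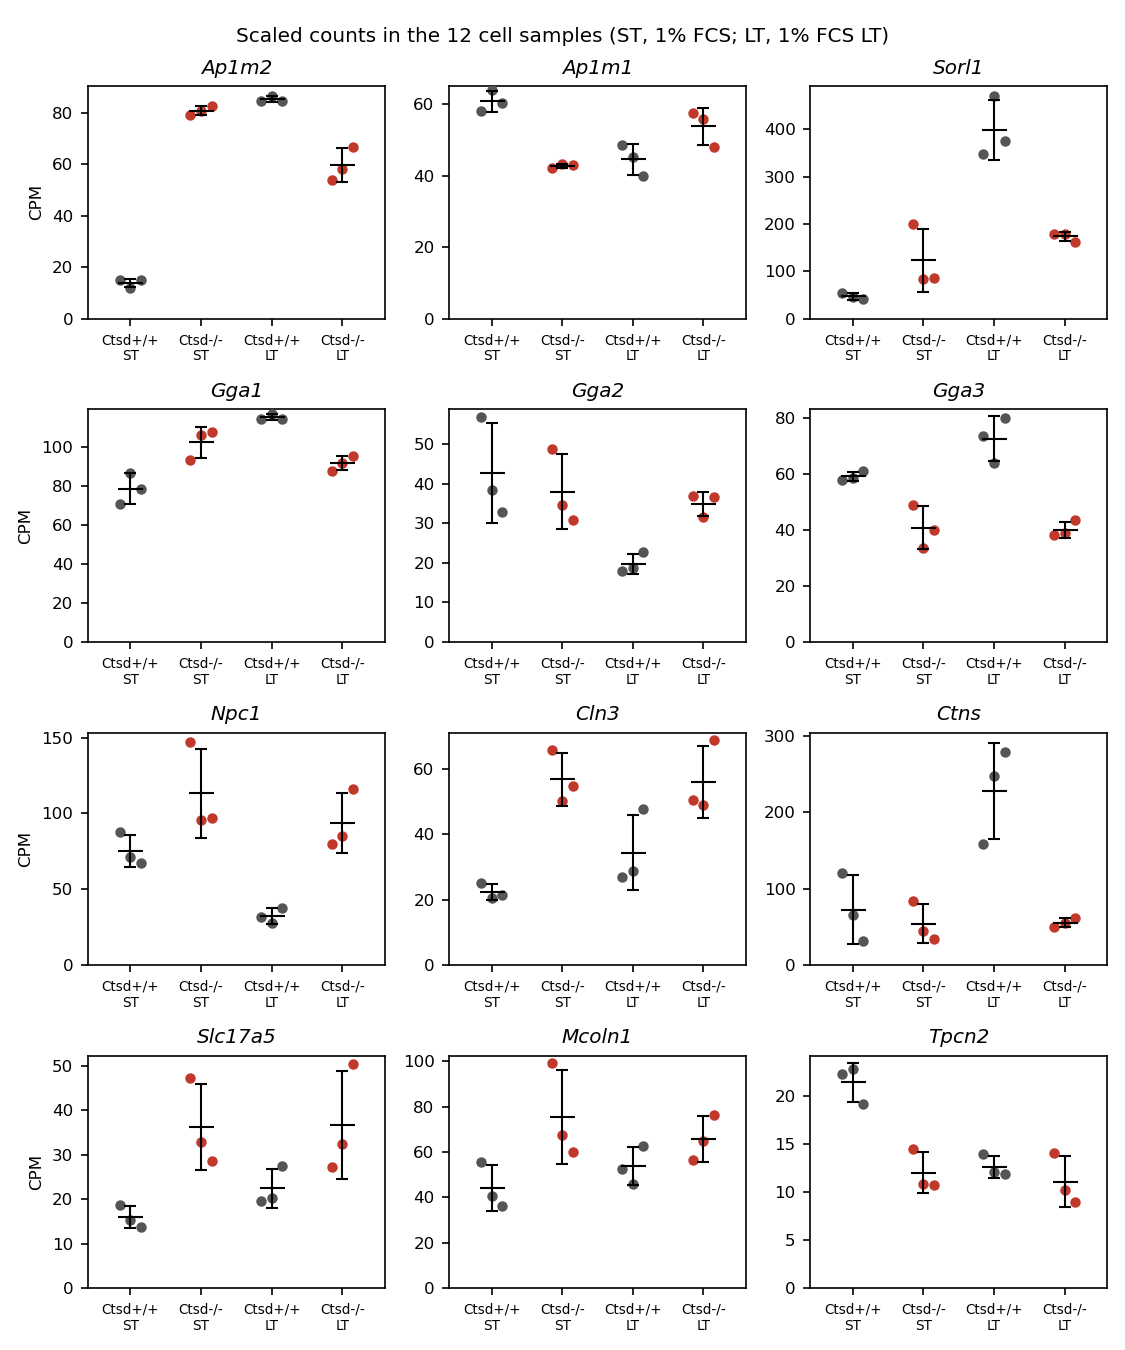
CPM of 12 genes in the 12 cell samples, each axis starting at 0, with 1 point per sample and the mean ± SD of each group. Ap1m2 is lowest in the Ctsd+/+ 1% FCS group and Sorl1 and Ctns are highest in the Ctsd+/+ 1% FCS LT group.

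Over both culture times, 6 members (15%, beside 9.11% of all genes) were called higher in Ctsd-/- cells in both comparisons (Cln3, Mfsd8, Npc1, Slc17a5, Vps26a and Vps41). A further 2 (5%, beside 10.1%) were called lower in both (Ap1b1 and Gga3), and 3 (7.5%, beside 1.98%) higher in 1% FCS and lower in 1% FCS LT (Ap1m2, Gga1 and Sorl1). In 1% FCS alone 8 were called (20%, beside 24.2%), in 1% FCS LT alone 6 (15%, beside 15.2%) and in neither 15 (37.5%, beside 36.2%). These shares are a description, without a test. By the main fit, the members called in none of the 6 comparisons, tumors and time included, were Ap3b1, Clcn7, Gnptab, Gnptg, Lamp1, Lamp2, M6pr, Mcoln3, Nagpa, Ostm1, Scarb2, Tmem192, Tpcn1 and Vps18. Some of these were called in alternative runs, such as Lamp1 in 1% FCS with the LR code as a covariate (adjusted p = 0.00825 by edgeR). Whether a call in 1 comparison alone marks a difference between them is a matter of the interaction test below.

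Time in 1% FCS was compared within each line. In Ctsd-/- cells none of the 40 genes was called, beside 2.38% of all genes (1.57% higher and 0.81% lower, and 1.48% with an absolute log2 FC above 1), 4 had an unadjusted p under 0.05, beside 18% of all genes, and the log2 FC of the 40 ran from -0.44 to 0.50 with a median of 0.00. DESeq2 called 2 and limma-voom 1. Ap1m2 came nearest, at 79.2, 80.8 and 82.5 CPM in 1% FCS and 53.7, 58.3 and 66.8 CPM in LT without overlap (log2 FC -0.44 ± 0.11, adjusted p = 0.0537 by edgeR). In 5 of the 40 genes the groups did not overlap, beside 25.4% of all genes.

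In Ctsd+/+ cells 15 of the 40 genes were called, 8 higher and 7 lower, which is 37.5% beside 46.4% of all genes (23% higher and 23.4% lower). The members' median log2 FC was 0.20, beside 0.01 for all genes, and 0.13 without 1% FCS replicate 3 or LT replicate 3, and the groups of 22 genes did not overlap, beside 53.7% of all genes. Of the 15, 9 were called in each of the 6 fits that leave out 1 sample. The calls of Cd63, Cln3, Ap1g1, Vps35, Vps11 and Vps41 were each lost without 1 to 5 of the 6 samples, with adjusted p-values of up to 0.174 (Cln3). Among the samples with the common LR code 16 were called, Cd63 not among them (adjusted p = 0.109), and with the LR code as a covariate 23. With the covariate Lamp1 (adjusted p = 0.020), Mcoln1 (adjusted p = 0.0151) and Sort1 (adjusted p = 0.0029) were called higher. Sorl1 went from 55.0, 44.8 and 40.4 to 349, 470 and 375 CPM (log2 FC 3.09 ± 0.30, adjusted p = 1.02e-05), Ap1m2 from 14.8, 12.0 and 14.9 to 84.7, 86.7 and 84.7 CPM (log2 FC 2.62 ± 0.11, adjusted p = 7.08e-08) and Ctns from 121, 65.8 and 31.3 to 158, 248 and 279 CPM (log2 FC 1.65 ± 0.44, adjusted p = 0.00851). Npc1 fell by 1.22 on the log2 scale (adjusted p = 0.000493), Gga2 by 1.11 (adjusted p = 0.00134), Tpcn2, from 22.3, 22.9 and 19.2 to 14.0, 12.1 and 11.9 CPM, by 0.76 (adjusted p = 0.00523) and Vps39 by 0.69 (adjusted p = 0.000687), each without overlap. In the same comparison 4 of 6 epithelial markers were higher and 3 of 4 fibroblast markers tested lower.

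The interaction tests whether the genotype difference in 1% FCS LT differs from that in 1% FCS. It draws on the same 12 samples as the comparisons above, so that its values and theirs are not independent. Of the 40 members, 7 were called, 4 higher and 3 lower, which is 17.5% beside 30.3% of all genes (16.1% higher and 14.1% lower). The members' median was -0.17, beside 0.00 for all genes, and it was -0.03 without Ctsd-/- 1% FCS replicate 1. It was -0.12 without Ctsd+/+ 1% FCS replicate 3 and -0.11 without Ctsd-/- LT replicate 1. Among the samples with the common LR code there were 10 calls, and with the LR code as a covariate 13, Mcoln1 among them (-0.47, adjusted p = 0.0202). With an absolute log2 FC above 1 there were 2, both lower, beside 19.1% of all genes.

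The largest interaction was that of Ap1m2, at -3.06 ± 0.15 (adjusted p = 6.79e-07 by edgeR), from a log2 FC of 2.54 in 1% FCS and -0.52 in LT. Sorl1 followed at -2.60 ± 0.40 (adjusted p = 0.00061), from 1.40 and -1.20, and Gga1 at -0.71 ± 0.13 (adjusted p = 0.00213), from 0.38 and -0.33. In the other direction Ap1m1, at 48.5, 45.2 and 39.9 against 57.5, 55.8 and 48.0 CPM in LT, had 0.78 ± 0.14 (adjusted p = 0.00179), from -0.51 and 0.27, and Vps39 0.62 ± 0.17 (adjusted p = 0.0183), from 0.10 and 0.71. These 5 calls held in each of the 12 fits that leave out 1 sample. Gga2 (0.99 ± 0.30, adjusted p = 0.0276) and Npc1 (0.94 ± 0.28, adjusted p = 0.0264) lost their calls in 7 and 6 of these fits, with adjusted p-values of up to 0.0684 and 0.0668. Among the genes called in 1% FCS alone, Ap1m1 had a called interaction, and among those called in 1% FCS LT alone, Gga2 and Vps39 had. The share of all genes with such calls that had a called interaction was not taken. For Ctns the interaction of -1.62 ± 0.61 had an adjusted p of 0.0628. In the interaction 4 of 6 epithelial markers were lower and 3 of 4 fibroblast markers tested higher.

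**Figure D5:**
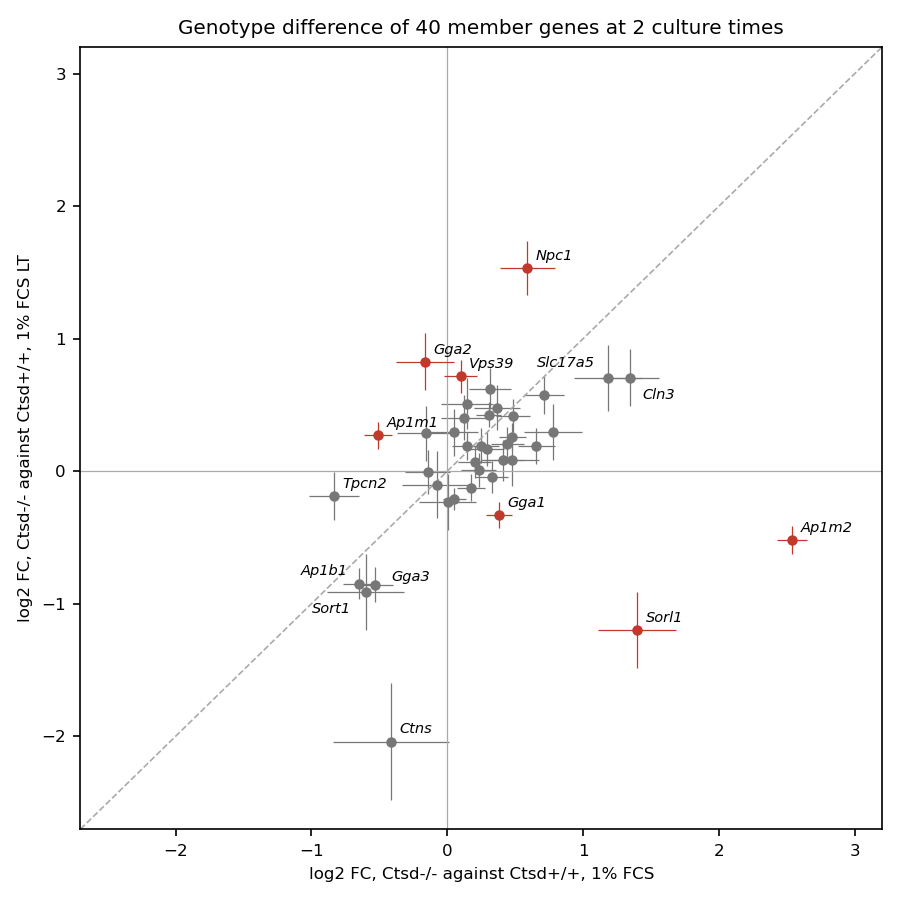
Log2 FC of Ctsd-/- against Ctsd+/+ cells in 1% FCS (horizontal) and in 1% FCS LT (vertical) for 40 genes, with bars of 1 SE and a dashed line where both are equal. Red points are the 7 genes with a called interaction, of which Ap1m2, Sorl1 and Gga1 lie at the lower right and Npc1, Gga2, Vps39 and Ap1m1 above the line.

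The medium subunits of AP-1 are alternatives within 1 complex, so their ratio was taken per length in each sample. The Ap1m2 to Ap1m1 ratio was 0.191 to 0.259 in Ctsd+/+ 1% FCS cells, 1.90 to 1.95 in Ctsd-/- 1% FCS cells, 1.77 to 2.15 in Ctsd+/+ LT cells and 0.946 to 1.41 in Ctsd-/- LT cells. Ap1m1 was thus the more abundant transcript in every Ctsd+/+ 1% FCS sample and the less abundant in every sample of the next 2 groups, while the ratio of Ctsd-/- LT cells lay between without overlap. In tumors it was 1.88 to 3.66 in controls and 1.54 to 2.49 in knockouts, with overlap. The Gga1 to Gga2 ratio was 13.1 to 16.5 in Ctsd+/+ LT cells and 3.21 to 9.09 in the other 9 cell samples.

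Further genes of the same compartments were read from 2 lists, of 34 other lysosomal membrane proteins and 42 other sorting and fusion genes. In tumors 2 of 34 membrane genes were called, both higher, and 3 of 41 sorting genes, 1 higher and 2 lower, which is 5.88% and 7.32% beside 16.7% of all genes. Ap1ar, which links AP-1 carriers to kinesin, was 16.7, 15.98, 15.4 and 13.3 CPM in controls and 19.7, 27.4, 17.4 and 19.9 CPM in knockouts without overlap (log2 FC 0.46, unadjusted p = 0.0477, adjusted p = 0.556 by edgeR).

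In 1% FCS cells 14 of 31 membrane genes (7 higher and 7 lower) and 17 of 41 sorting genes (12 higher and 5 lower) were called, 45.2% and 41.5% beside 48.5% of all genes. In LT they were 11 (7 higher and 4 lower) and 15 (7 higher and 8 lower), 35.5% and 36.6% beside 39.6%. Litaf, an adaptor of late endosomal membranes, was higher at both times, with 175, 229 and 184 against 428, 542 and 561 CPM in 1% FCS (log2 FC 1.38, adjusted p = 3.82e-05) and 183, 156 and 210 against 321, 351 and 427 CPM in LT (log2 FC 1.00, adjusted p = 0.000512). Cd68, a lysosomal glycoprotein that is also a macrophage marker, was low throughout, with 3.90, 2.23 and 2.36 against 20.5, 9.01 and 7.36 CPM in 1% FCS (log2 FC 2.12, adjusted p = 0.0083) and 1.76, 3.54 and 5.27 against 5.91, 6.31 and 18.6 CPM in LT (log2 FC 1.54, adjusted p = 0.0424). Neither gene's groups overlapped at either time. Cyb561a3, a lysosomal ferric reductase, was 19.2, 17.0 and 17.6 against 41.3, 39.6 and 39.7 CPM in 1% FCS (log2 FC 1.16, adjusted p = 2.7e-06). Hgsnat, which acetylates heparan sulfate at the lysosomal membrane, was 59.3, 56.4 and 67.8 against 84.6, 111 and 166 CPM in LT (log2 FC 0.98, adjusted p = 0.00605). Both were higher in every Ctsd-/- sample.

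Lower in 1% FCS were Clcn6, Slc46a3 and Plekhm1. Clcn6, a chloride and proton exchanger of late endosomes, was 53.5, 67.8 and 48.2 against 18.7, 18.4 and 17.8 CPM (log2 FC -1.63, adjusted p = 3.21e-05). Slc46a3, a lysosomal transporter, was at low levels, with 2.70, 0.916 and 0.785 against 0.243, 0.274 and 0.355 CPM (log2 FC -2.33, adjusted p = 0.00398). Plekhm1, a Rab7 effector, was 85.3, 55.7 and 55.5 against 38.9, 27.7 and 31.1 CPM (log2 FC -1.01, adjusted p = 0.00197). None of the 3 overlapped.

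The clathrin light chains, which the GGA and AP-1 adaptors work with, were both lower in Ctsd-/- LT cells. Cltb was 160, 171 and 143 against 65.8, 80.1 and 72.1 CPM (log2 FC -1.12, adjusted p = 0.000282) and Clta 192, 192 and 204 against 96.1, 87.6 and 98.3 CPM (log2 FC -1.06, adjusted p = 4.36e-06). Hgs, which gathers ubiquitinated cargo on endosomes, was 245, 277 and 301 against 134, 135 and 153 CPM (log2 FC -0.96, adjusted p = 2.31e-05). In all 3 the groups stood apart. In 1% FCS Cltb was 69.7, 50.4 and 55.3 against 67.9, 101 and 101 CPM, with overlap.

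In Ctsd+/+ cells over time 9 of 31 membrane and 18 of 41 sorting genes were called, 29% and 43.9% beside 46.4% of all genes. Cltb rose by a log2 FC of 1.43 (adjusted p = 3.86e-05), Abcb9, a lysosomal peptide transporter, from 1.62, 0.397 and 0.288 to 2.81, 4.21 and 3.45 CPM (log2 FC 2.19, adjusted p = 0.00894), and Ap1s3, a small AP-1 subunit, from 7.02, 3.11 and 3.53 to 8.05, 9.40 and 7.66 CPM (log2 FC 0.88, adjusted p = 0.0194). Clcn6 fell by 1.12 on the log2 scale (adjusted p = 0.000471). Stam, a partner of Hgs, went from 51.4, 45.8 and 58.4 to 21.8, 22.2 and 30.4 CPM (log2 FC -1.06, adjusted p = 0.00109) and Tmem175, a lysosomal potassium and proton channel, from 19.5, 19.3 and 15.4 to 9.67, 9.94 and 11.4 CPM (log2 FC -0.81, adjusted p = 0.00181). The early and late groups of these genes did not overlap. In Ctsd-/- cells 1 and 0 were called, 3.23% and 0% beside 2.38% of all genes, and with an unadjusted p under 0.05 there were 6 and 4, beside 18% of all genes. The 1 was Pip4p1, a phosphoinositide phosphatase of lysosomes, which went from 29.7, 29.0 and 27.6 to 44.3, 42.4 and 42.3 CPM (log2 FC 0.58, adjusted p = 0.010).

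In the interaction 5 of 31 membrane genes (4 higher and 1 lower) and 10 of 41 sorting genes (3 higher and 7 lower) were called, 16.1% and 24.4% beside 30.3% of all genes. Clcn6 had 1.39 (adjusted p = 0.00218), Tmem175 1.24 (adjusted p = 0.00197) and Vps16, a core subunit of HOPS, 0.86 (adjusted p = 0.000136). Vps16 was 65.0, 62.4 and 67.6 against 54.3, 55.9 and 52.0 CPM in 1% FCS and 36.8, 37.3 and 38.1 against 56.0, 56.9 and 57.0 CPM in LT, so that the genotypes changed order without overlap. Cltb had -1.74 (adjusted p = 0.000234) and Hgs -0.82 (adjusted p = 0.0013).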

How the data were processed

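RNA-seq counts of 8 tumors and 12 cell samples were used as deposited. Per the labels and the study's methods, the authors trimmed reads with Trimmomatic and aligned them to GRCm38 with STAR, which wrote raw counts per gene. Versions and the annotation release are not given in the sources used here. Counts regardless of strand were used for tumors (52.8% to 53.7% of stranded reads fell on the opposite strand) and opposite-strand counts for cells (97.1% to 97.3%). Rows that name no gene held 24.7% to 32.7% of tumor and 14.8% to 19.0% of cell reads and were left out. Of 45706 identifiers 45143 matched a symbol.

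Tumors and cells were fitted separately over all genes with edgeR 4.0.16 (R 4.3.3), using TMM factors, filterByExpr and the two-sided quasi-likelihood test, with Benjamini-Hochberg adjustment over 18617 and 15178 genes. Calls used an unadjusted p under 0.1 in tumors and an adjusted p under 0.05 in cells. CPM are TMM-scaled within each material and FPKM use exon length. The study's own tests used limma. Alternatives were limma-voom (limma 3.58.1), DESeq2 1.42.0, RLE factors, no filter, the replicate block, the other strand column, the LR code as covariate or the common LR code alone, only the compared groups, and leaving out each sample. The model was tested on simulated data. No replicates were alike within sampling noise. The labels do not say that cell replicates are separate cultures. Values in every sample are given for Ctsd, 11 members that stand for the roles and, per comparison, up to 6 members with the largest change among those called without overlap, and up to 3 other pathway genes in each direction by the same rule. Further genes were named after their values were seen. Among the pathway genes, 1 that the rule selects is not reported here. The members and lists were chosen with earlier results of these data known.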

Additional observations from a re-analysis of the deposited data

Results flagged for a closer look

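In tumors, 8 of 46 groups of 4 held a sample whose gap to the nearest other sample was large for the range of its group (Dixon's test at 95%), where chance gives about 1 in 20. The highest control tumor was at 347.2 CPM for Ap1m2, 32.08 CPM for Gga2 and 288.6 CPM for Rab7. The highest knockout tumor was at 605.9 CPM for Cd63, 154.6 CPM for Igf2r, 463.2 CPM for Lamp2 and 38.88 CPM for Slc17a5, and the lowest was at 69.24 CPM for Cln3. Control tumor 4 was the sample for Ap1m2 and Rab7 and control tumor 1 for Gga2. Among the knockouts it was tumor 1 for Cd63 and Lamp2, tumor 2 for Igf2r and Slc17a5 and tumor 3 for Cln3.

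In cells the genotype difference itself differed between culture times for 7 genes by edgeR's interaction test. The change in log2 FC was -3.06 for Ap1m2, -2.60 for Sorl1, -0.71 for Gga1, 0.78 for Ap1m1, 0.94 for Npc1, 0.99 for Gga2 and 0.62 for Vps39. The Ctsd+/+ 1% FCS samples, whose fibroblast markers summed to 1159 to 3045 CPM, enter each of these values, and the part of that in them was not tested.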

How the results depend on the processing

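No result changed direction with a call under any alternative run. Counts of called genes moved by more than 1.5 times in these cases. In Ctsd-/- cells over time, 0 calls became 2 with DESeq2, 1 with limma-voom, 1 with RLE size factors, 3 with the LR code as covariate and 2 among samples with the common LR code, and 0 to 1 when each sample was left out. In tumors 7 calls became 2 with the replicate block and 2 to 12 when each tumor was left out. With the LR code as covariate, 15 calls in Ctsd+/+ cells over time became 23 and 7 interaction calls became 13. The share of all genes called was not taken for the alternative runs, so a change over all genes cannot be told apart from one of the members. When each sample was left out, the 17 calls in 1% FCS LT ran from 11 to 16 and the interaction median from -0.227 to -0.029. The cause was not tested. Of the values of single genes, 1370 kept their side of the threshold, 36 fell short of it and 33 newly passed it. Some of the 1370 changed sign without a call, such as Lamp1 in tumors (log2 FC -0.048 to 0.126 over the alternatives).

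Numbers were to be taken as pairing samples where every same-numbered pair of 2 groups deviated together, at a correlation above 0.1. No 2 groups met this. The correlations were -0.303 to -0.008 in tumors, 0.10 to 0.362 between genotypes in 1% FCS and 0.002 to 0.119 in 1% FCS LT. Over time they were 0.077 to 0.192 in Ctsd-/- and -0.143 to -0.033 in Ctsd+/+ cells. Between genotypes in 1% FCS all were positive (mean 0.254, beside -0.126 for other pairs), so that a pairing there is not excluded. The main fit does not pair samples. The replicate block also joins same-numbered 1% FCS and 1% FCS LT samples, although some of these carry different LR codes. With the replicate block there were 2 calls in tumors, 20 in 1% FCS, 17 in 1% FCS LT, 0 in Ctsd-/- and 16 in Ctsd+/+ cells over time, and 8 interactions, again without the share of all genes.

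With 3 or 4 samples a group, p-values set each difference against the spread between these samples. In tumors the samples come from separate mice. In cells they come from 1 line per genotype, so that the p-values there do not cover other lines. Mcoln2 and Mcoln3 could not be tested in cells at this depth.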
